A study of Mus musculus with 4 samples.

Results

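Ubiquitin is a small protein that cells attach to other proteins as a tag for destruction by the proteasome, for sorting, or for assembling signalling complexes. An activating enzyme (E1) passes it to a conjugating enzyme (E2), a ligase (E3) helps transfer it from the E2 to a chosen substrate, and deubiquitinases remove it again. In macrophages and microglia, ubiquitin chains carry the signal from Toll-like receptor 4, the sensor of bacterial lipopolysaccharide (LPS), to the NF-kB transcription factors, and ligases and deubiquitinases also end that signal.

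The genes described here are those whose mouse symbol starts with Trim, Rnf, Usp, Otud or Ube2 followed by a digit or letter, with Usp18 left out. They number 253 of the 23783 genes that have a record in the count table, with 83 Rnf, 68 Trim, 56 Usp, 38 Ube2 and 8 Otud genes. Each gene is represented by its most abundant RefSeq transcript record. Rnf genes mostly encode ligases with a RING finger, and Trim genes encode tripartite motif proteins, many of them RING ligases. Usp and Otud genes mostly encode deubiquitinases of the ubiquitin-specific protease and ovarian tumour families. Ube2 genes mostly encode E2 enzymes, which are neither ligases nor deubiquitinases. A choice by symbol also takes related genes such as Uspl1, Rnft1 and Triml1 and the pseudogene Ube2d-ps.

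Expression was measured by RNA-seq in BV-2 cells, an immortalised mouse microglial line grown in serum-containing medium. In 2 samples the cells had been exposed to LPS at 10 ng/ml for 4 h, and 2 control samples carry the same 4 h label. Nothing in the labels says that replicates were grown as separate cultures. The p-values therefore measure only how far these libraries scatter, and that scatter may be technical. BV-2 is a single transformed line and stands in for microglia only to that extent. Its growth text also describes mixed glial cultures.

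Library totals were 3368693 and 3082538 counts after LPS, against 2778686 and 3059196 counts in controls. The 5 most abundant records took 53.4% to 67.5% of each library, which left 902176 to 1425303 counts for all others. Control replicate 1 had both the highest share and the fewest other counts. Its effective library size was 2209762, against 3178235 to 3682725 in the other libraries. Of 10 microglial and macrophage markers, 9 had counts but only 5 passed the filter on low counts. Aif1, Ptprc, Cx3cr1 and Trem2 were below it, with 0 to 9 raw counts per library. The sum over the markers was 2829 and 2815 normalised counts after LPS, against 2592 and 2179 in controls. Without Spi1, the myeloid transcription factor gene that rose to 1121 and 1129 after LPS, against 580 and 438 in controls (edgeR adjusted p 0.00391), the sums were 1708 and 1686 after LPS, against 2013 and 1741 in controls. Itgam, the macrophage integrin gene, was listed at 0 in every library. Markers of oligodendrocytes and fibroblasts were at 0, and those of astrocytes and neurons summed to at most 1.96 normalised counts in any library. The control pair differed from each other more than the LPS pair, with chi-square values per degree of freedom of 1.87 within the LPS pair and 7.0 within the control pair, where counting error alone gives about 1.

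Whether a gene could be measured depended on its number of records. Of the 253 genes, 113 (44.7%) passed the filter on low counts, 75 had no count in any library and 65 had counts below the filter. Among genes with 1 record 109 of 188 were tested (58.0%), against 4 of 65 genes with 2 or more records (6.15%). Over all genes of the table the shares were 34.8% and 6.07%. How reads shared between records of a gene were counted is not given in the sources used here. A gene listed at 0 is therefore not shown to be silent. A count of 0 allows up to 3 counts, which is 2.53 to 4.22 normalised counts depending on the library. Trim21, Trim26, Trim38, Otud4, Otud5, Usp8 and Ube2h were among those at 0.

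Few of these genes passed the test. In edgeR's quasi-likelihood test, 4 of the 113 tested genes were higher after LPS at an adjusted p below 0.05 and 0 were lower. The 4 are Rnf19b, Ube2f, Rnf145 and Rnf149. That is 3.54% of the tested genes, against 5.53% of all 6981 records tested, of which 3.82% were higher and 1.70% lower. With all 4 libraries the share is no higher than that of the whole table, so the count is not a result about ubiquitin genes as a collection. With GC content and transcript length corrected for, 429 records were higher and 317 lower over the whole table, against 267 and 119 without the correction. In bulk RNA, fewer cells with a transcript and less of it per cell cannot be told apart. At an unadjusted p below 0.05, 10 were higher and 5 lower, or 15 of 113 where 15.4% of all records had such a p. The median log2 fold change was 0.01, with quartiles of -0.21 and 0.30, beside a median of -0.01 and quartiles of -0.26 and 0.21 over all records. In 88 of 113 genes the log2 fold change lay within 0.5 of 0, as it did in 5266 of the 6912 genes tested over the whole table. The median standard error (SE) was 0.268 on the log2 scale, so that changes well below 2-fold could often not be told from the spread between libraries. DESeq2 called 1 of the 113, Ube2f, and limma-voom called the same 4 as edgeR. The count depended on single libraries. It was 0 of 113 without LPS replicate 1 and without LPS replicate 2. It was 17 without control replicate 1 (15.0%, where 15.5% of all records were called) and 26 without control replicate 2 (23.0%, where 19.4% were).

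**Figure D1:**
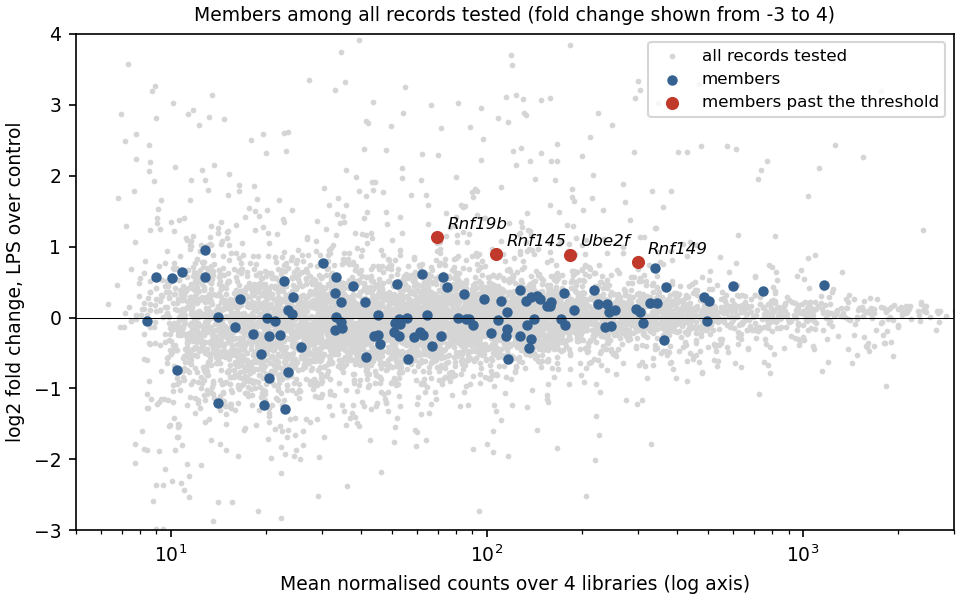
Log2 fold change of LPS over control (vertical axis) against the mean normalised count over 4 libraries (horizontal log axis), with all 6981 tested records in grey, the 113 tested ubiquitin genes in blue and the 4 past the threshold in red. Most blue points lie within 0.5 of 0, and the red ones lie between 0.78 and 1.13. Records with more extreme fold changes lie outside the axis.

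The promoters of the 4 genes that rose are shown because these are the changes that passed the test. Each is the 250 bases before a RefSeq transcript start on GRCm38.p6, written 5′ to 3′ on the strand of the gene. Where a gene has several RefSeq starts, the one nearest to the GENCODE start of a transcript linked to the counted record was taken, and the distance was 8 to 127 bases. For Rnf149 that GENCODE start falls inside the window, 58 bases before its end. They lie at chr4:129057894-129058143 (plus strand) for Rnf19b, chr1:91250054-91250303 (plus) for Ube2f, chr11:44518706-44518955 (plus) for Rnf145 and chr1:39577348-39577597 (minus) for Rnf149. Capitals mark matches to a loose NF-kB motif (GGG, any 5 bases, CC) on either strand, with overlapping matches merged.
Rnf19b: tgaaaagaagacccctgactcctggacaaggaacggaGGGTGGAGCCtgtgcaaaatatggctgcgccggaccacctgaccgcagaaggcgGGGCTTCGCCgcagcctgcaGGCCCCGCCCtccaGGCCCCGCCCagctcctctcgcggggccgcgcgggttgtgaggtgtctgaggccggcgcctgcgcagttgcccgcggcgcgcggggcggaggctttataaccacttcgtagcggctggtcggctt
Ube2f: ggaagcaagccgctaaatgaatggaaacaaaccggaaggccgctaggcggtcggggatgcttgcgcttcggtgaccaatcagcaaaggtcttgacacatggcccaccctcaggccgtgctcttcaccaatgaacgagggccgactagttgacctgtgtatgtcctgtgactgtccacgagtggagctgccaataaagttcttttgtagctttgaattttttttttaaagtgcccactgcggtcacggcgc
Rnf145: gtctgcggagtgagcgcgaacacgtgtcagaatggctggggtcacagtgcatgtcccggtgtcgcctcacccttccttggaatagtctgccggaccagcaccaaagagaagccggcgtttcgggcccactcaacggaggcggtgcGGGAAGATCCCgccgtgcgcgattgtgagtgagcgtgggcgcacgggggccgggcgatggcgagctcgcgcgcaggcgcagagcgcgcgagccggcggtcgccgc
Rnf149: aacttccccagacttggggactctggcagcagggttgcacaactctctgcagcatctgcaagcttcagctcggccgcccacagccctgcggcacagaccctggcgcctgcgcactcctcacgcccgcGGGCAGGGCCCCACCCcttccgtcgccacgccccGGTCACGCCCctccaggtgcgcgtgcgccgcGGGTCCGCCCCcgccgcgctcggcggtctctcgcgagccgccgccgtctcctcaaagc

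The windows of Rnf19b, Rnf145 and Rnf149 hold the NF-kB letters and that of Ube2f does not. These windows are not all outside the genes as RefSeq draws them, because a gene's span covers all its transcript models: the Ube2f window lies wholly inside the span of its gene, and those of Rnf145 and Rnf149 lie partly inside. The letters are common, since 45.8% of all 32851 promoter windows of this length hold them, as do 69.8% of the 106 windows of the tested ubiquitin genes, and 3 of these 4 windows are 69.2% to 73.2% GC. None of the 4 held the core of the interferon-stimulated response element (GAAA, any 2 bases, GAAA), found in 2.98% of all windows, or TGANTCA, the AP-1 motif found in 6.75%. Promoter windows were matched by symbol to 196 of the 253 genes. A match describes letters and not a bound site.

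Rnf19b is a transmembrane ligase of the RING-between-RING class known from cytotoxic lymphocytes and macrophages (record NM_029219, gene span on chromosome 4, 129058144 to 129084526). Its fold change was the highest of the tested ubiquitin genes of these families. It had 97.1 and 92.9 normalised counts after LPS, against 49.2 and 38.8 in controls. The means were 95.0 ± 2.95 after LPS and 44.0 ± 7.36 in controls (SD, n = 2 each), and the groups did not overlap. The log2 fold change was 1.13 (SE 0.255, edgeR adjusted p 0.0241), or 2.19-fold. Rnf19a, its closest relative in this collection, had 18.5 and 12.7 normalised counts after LPS, against 8.44 and 11.8 in controls, and did not pass (log2 fold change 0.58, SE 0.441, edgeR adjusted p 0.664).

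Ube2f, the E2 that conjugates the ubiquitin-like protein NEDD8 to cullins together with the RING protein encoded by Rnf7, rose as well (record NM_026454, gene span on chromosome 1, 91249690 to 91286521). It had 229 and 244 normalised counts after LPS, against 135 and 122 in controls, with means of 237 ± 10.8 after LPS and 129 ± 8.95 in controls (SD, n = 2 each), so its groups stood apart (log2 fold change 0.88, SE 0.201, edgeR adjusted p 0.0241). Rnf7 itself had 354 and 386 normalised counts after LPS, against 315 and 327 in controls, and did not pass (log2 fold change 0.21, edgeR adjusted p 0.735). Nedd8 had 118 and 125 normalised counts after LPS, against 139 and 118 in controls, and also did not pass. Ube2m, the other NEDD8 E2, had 11 and 10 raw counts after LPS, against 2 and 8 in controls, and was below the filter.

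Rnf145, a ligase of the endoplasmic reticulum membrane known for sterol-dependent degradation of HMG-CoA reductase, had 142 and 136 normalised counts after LPS, against 78.8 and 71.7 in controls (record NM_028862, gene span on chromosome 11, 44518793 to 44565520). The means were 139 ± 4.56 after LPS and 75.3 ± 4.97 in controls (SD, n = 2 each). The log2 fold change was 0.89 (SE 0.220, edgeR adjusted p 0.0374). A second record of the gene, NM_001166553, had 17 and 19 raw counts after LPS, against 7 and 9 in controls, with a log2 fold change of 1.00 that did not pass (edgeR adjusted p 0.299). Both records were thus higher in each LPS library than in either control.

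Rnf149, a transmembrane RING ligase with a protease-associated domain, was the most abundant of the 4 per length after Ube2f (record NM_001033135, gene span on chromosome 1, 39551294 to 39577439). It had 386 and 373 normalised counts after LPS, against 191 and 248 in controls. The means were 380 ± 9.80 after LPS and 220 ± 40.2 in controls (SD, n = 2 each). The groups did not overlap, although the controls lay further apart from each other than the LPS libraries. The log2 fold change was 0.78 (SE 0.198, edgeR adjusted p 0.0430).

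**Figure D2:**
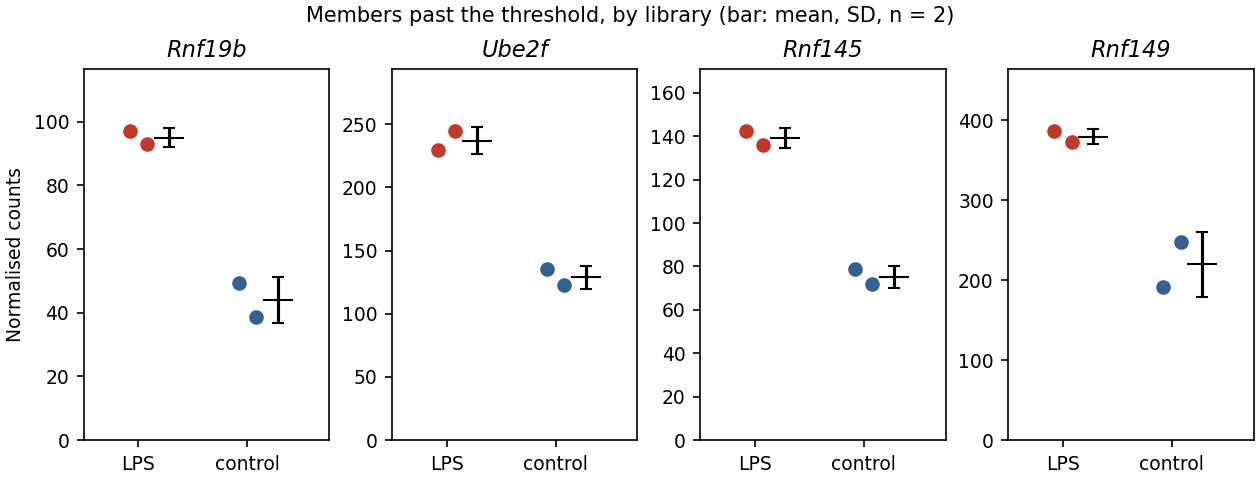
Normalised counts (vertical axis from 0) of Rnf19b, Ube2f, Rnf145 and Rnf149 in the 2 LPS and the 2 control libraries, with points for libraries and bars for mean and SD (n = 2). In each gene both LPS values lie above both control values.

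The size of these rises varied less than their calls, in settings that all reuse the libraries in which the genes were picked. Over 14 alternative settings the log2 fold change ran from 0.95 to 1.29 for Rnf19b, from 0.71 to 0.95 for Ube2f, from 0.82 to 0.95 for Rnf145 and from 0.61 to 0.99 for Rnf149. Without LPS replicate 1 none of the 4 passed (edgeR adjusted p 0.261 to 0.543), and none passed without LPS replicate 2 (0.184 to 0.456). In those fits the spread comes from the 2 control libraries alone. The fits without control replicate 1 or control replicate 2 take their spread from the LPS pair alone. Those 2 libraries scattered less than the controls, so a call in these fits adds no support for the 4 genes. Without control replicate 1 the log2 fold change was 1.29 for Rnf19b, 0.95 for Ube2f, 0.95 for Rnf145 and 0.61 for Rnf149. Without control replicate 2 it was 0.95, 0.81, 0.82 and 0.99 in the same order. In the DESeq2 Wald test the adjusted p was 0.0962 for Rnf19b, 0.147 for Rnf145, 0.0723 for Rnf149 and 0.0482 for Ube2f.

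**Figure D3:**
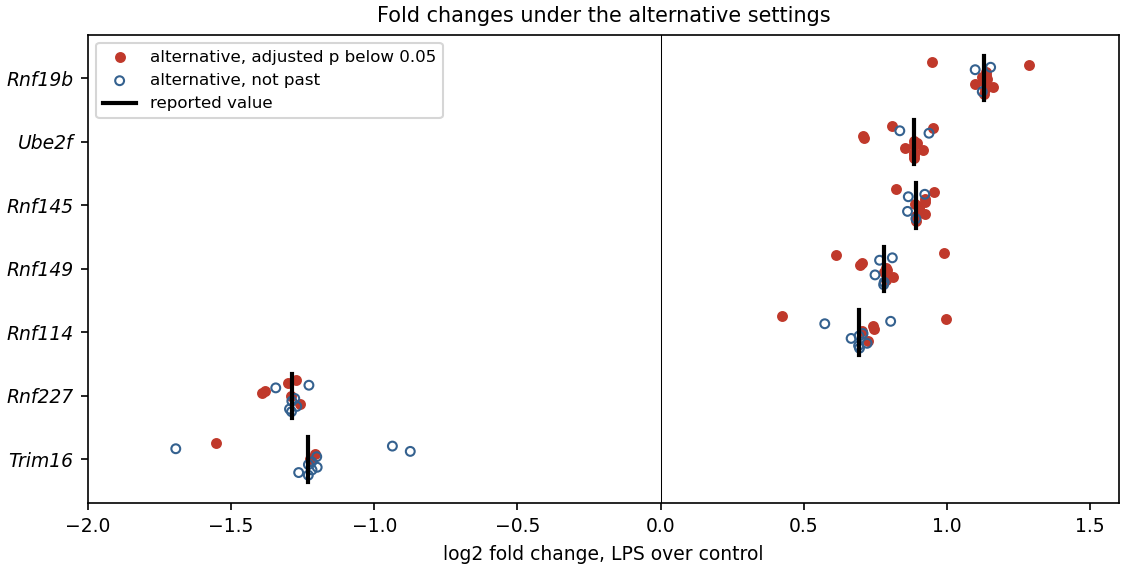
Log2 fold change of LPS over control (horizontal axis) of 7 genes under 13 or 14 alternative settings, filled where the adjusted p was below 0.05 and open where not, with the reported value as a black bar. Every point of the first 5 genes lies above 0, and every point of Rnf227 and Trim16 lies below 0.

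Ube2 genes, mostly E2 enzymes, had the largest share of tested genes, 27 of 38, and the highest levels, with a median of 54.7 normalised counts per kilobase of transcript against 23.1 over all tested genes. Their fold changes leaned upward. The log2 fold change was above 0 in 19 and below 0 in 8 of the 27, with a median of 0.24. Over all genes tested it was above 0 in 3340 and below 0 in 3572. Only Ube2f passed the test, which is 3.70% of the 27, against 5.53% of all records tested. In 13 of the 27 both LPS libraries lay above both controls and in 1 both lay below, where 21.4% and 21.9% of all records did so. Summed over all 38 genes, Ube2 transcripts came to 6455 and 6450 normalised counts after LPS, against 5356 and 5001 in controls. After correction for GC content and length, the median of the 27 was 0.07, and 18 were above 0.

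Ube2s and Ube2c, the E2 pair of the anaphase-promoting complex, were the most abundant per length of the tested ubiquitin genes of these families. Ube2s had 1368 and 1324 normalised counts after LPS, against 1124 and 835 in controls. Its log2 fold change of 0.46 did not pass (95% interval 0.04 to 0.89, edgeR adjusted p 0.272). It passed with the GC and length trend removed (log2 fold change 0.46, edgeR adjusted p 0.0153), a fit that called 10.7% of all records. Over the 4 fits that left out a library, the log2 fold change of Ube2s ran from 0.26 to 0.69. Ube2c had 651 and 732 normalised counts after LPS, against 553 and 468 in controls, with a log2 fold change of 0.44 that did not pass (edgeR adjusted p 0.271). Both LPS libraries stood above both controls in each gene.

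Ube2d3, a broadly acting E2 that works with many RING ligases, had 859 and 837 normalised counts after LPS, against 580 and 722 in controls (log2 fold change 0.38, 95% interval -0.02 to 0.78, edgeR adjusted p 0.368). The log2 fold change of Ube2d3 ran from 0.23 to 0.55 over the 4 fits that left out a library. Its relatives Ube2d1 and Ube2d2a had log2 fold changes of 0.52 and 0.17 that did not pass in the edgeR test of all 4 libraries. As similar paralogues these genes could share reads.

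The E2 enzymes that build lysine-63 chains downstream of Toll-like receptors gave no call. Ube2n, which encodes the catalytic subunit, had 342 and 362 normalised counts after LPS, against 283 and 325 in controls (log2 fold change 0.21, 95% interval -0.20 to 0.61, edgeR adjusted p 0.736). Ube2v1, which encodes its partner subunit, had 241 and 205 normalised counts after LPS, against 342 and 156 in controls, so the LPS libraries lay between the controls. Its log2 fold change was -0.13 (edgeR adjusted p 0.931), but 0.52 without control replicate 1 (edgeR adjusted p 0.0293) and -0.61 without control replicate 2 (0.00232). The direction for Ube2v1 thus depended on which control was kept.

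Ube2l6, the E2 for the interferon-induced modifier ISG15, had 259 and 236 normalised counts after LPS, against 217 and 163 in controls (log2 fold change 0.39, edgeR adjusted p 0.440). Its log2 fold change ran from 0.19 to 0.60 over the 4 fits that left out a library. Isg15, the modifier gene, had 68.4 and 60.6 normalised counts after LPS, against 2.81 and 5.91 in controls, and rose by 3.74 on the log2 scale (SE 0.402, edgeR adjusted p 0.00013).

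RING finger genes supplied 3 of the 4 calls, Rnf19b, Rnf145 and Rnf149, out of 39 tested of 83. Of the 39, 7.69% were called, against 5.53% of all records tested. The median log2 fold change of the 39 was -0.02, with 16 above 0 and 23 below, and the range ran from -1.29 to 1.13. The median lay on the other side of 0 in some alternatives, such as 0.11 without control replicate 2. Rnf4, the ligase that recognises SUMO chains, and Rnf187, a RING ligase that acts on AP-1 signalling, were the most abundant by count. Rnf4 had 555 and 534 normalised counts after LPS, against 419 and 503 in controls (log2 fold change 0.24, edgeR adjusted p 0.668). Rnf187 had 519 and 462 normalised counts after LPS, against 549 and 465 in controls, with a log2 fold change of -0.05 (edgeR adjusted p 0.967).

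Rnf114, a ligase known in human cells as interferon-inducible, had 453 and 383 normalised counts after LPS, against 312 and 209 in controls, with no overlap of groups. Its log2 fold change was 0.69 (SE 0.222, unadjusted p 0.00974, edgeR adjusted p 0.121), and its annotated span overlaps Spata2. The adjusted p ran from 1.34e-08 to 0.902 over the alternatives, and 6 of 14 called it. Among those were the fits without control replicate 1 (log2 fold change 1.00) and without control replicate 2 (0.42).

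Rnf227 and Rnf24 had the lowest fold changes among Rnf genes and did not pass. Rnf227 is represented by NR_027827, a record that RefSeq annotates as a long non-coding RNA on this assembly. It had 13.9 and 12.7 normalised counts after LPS, against 32.4 and 32.9 in controls, and the groups did not overlap (log2 fold change -1.29, SE 0.345, edgeR adjusted p 0.0566). These values come from 15 and 13 raw counts after LPS, against 23 and 39 in controls. At counts this low, close values within a pair do not show reproducibility. The adjusted p was below 0.05 in 6 of 13 alternatives, among them 0.0117 with the GC and length trend removed. Its log2 fold change ran from -1.34 to -1.23 over the 4 fits that left out a library. Rnf24, which overlaps Pank2, had 7.40 and 9.78 normalised counts after LPS, against 18.3 and 21.1 in controls (log2 fold change -1.21, edgeR adjusted p 0.162).

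Ligases reported to act on NF-kB or Toll-like receptor signalling were tested in 9 of 14 cases, of which Rnf19b rose and none fell. Over all records tested, 3.82% were higher and 1.70% lower, and 9 genes are too few to set against these shares. Rnf31, the catalytic ligase of the linear ubiquitin complex, had 10.2 and 6.85 normalised counts after LPS, against 5.63 and 11.0 in controls (log2 fold change -0.05, 95% interval -1.21 to 1.12, edgeR adjusted p 0.990). Its level was too low for a 2-fold change in either direction to be detectable. Rnf11, an adaptor of the A20 editing complex, had 86.0 and 86.1 normalised counts after LPS, against 61.9 and 65.8 in controls (log2 fold change 0.42, edgeR adjusted p 0.466). Rnf5 and Rnf128 had log2 fold changes of -0.27 and -0.25 that did not pass.

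Tripartite motif genes were the least measured of the large families, with 15 of 68 tested and 30 at 0 in all libraries. None passed in the edgeR test of all 4 libraries or in DESeq2, and 1 was higher and 3 lower at an unadjusted p below 0.05, where 15.4% of all records had such a p. The median log2 fold change was -0.11, and 4 had both LPS libraries above both controls and 5 had both below, where 21.4% and 21.9% of all records did so. Trim28, the corepressor of KRAB zinc finger proteins, was the most abundant, with 326 and 317 normalised counts after LPS, against 489 and 319 in controls. Its log2 fold change of -0.32 (edgeR adjusted p 0.602) was -0.61 without control replicate 2 (0.000625) and 0.01 without control replicate 1, so it rests on control replicate 1, which stands above the other 3 libraries.

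Trim16, a family member without a RING domain that takes part in the response to damaged endosomes, had 8.32 and 14.7 normalised counts after LPS, against 33.8 and 21.9 in controls (log2 fold change -1.23, SE 0.423, edgeR adjusted p 0.157). The groups did not overlap, and it was called lower in 3 of 13 alternatives. Its log2 fold change ran from -1.69 to -0.87 over the 4 fits that left out a library. Trim8, a regulator of cytokine signalling, had 89.7 and 96.8 normalised counts after LPS, against 152 and 129 in controls (log2 fold change -0.58, SE 0.219, edgeR adjusted p 0.205). Without 1 library its log2 fold change ran from -0.70 to -0.47. Trim27, a RING ligase of endosomal protein sorting, had 177 and 162 normalised counts after LPS, against 200 and 147 in controls, and the log2 fold change was -0.02 (edgeR adjusted p 0.990).

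Interferon-linked genes were tested in 8 of 17 cases. All 8 had log2 fold changes above 0, from 0.01 to 0.95, with a median of 0.61, where 3340 of 6912 genes tested over the whole table were above 0. The list was chosen with earlier results of these data known, so this count does not test for a shared direction. None of the 8 passed in the edgeR test of all 4 libraries or in DESeq2. An unadjusted p below 0.05 was found for 2 of the 8, where 15.4% of all records had one. The 2 were Rnf114, which was called in 6 of 14 alternatives, and Trim56, called in 1 of 13. Trim56, a ligase of antiviral signalling, had 46.2 and 30.3 normalised counts after LPS, against 21.1 and 23.6 in controls (log2 fold change 0.76, SE 0.337, edgeR adjusted p 0.307). Trim25, which encodes a ligase of the RNA sensor RIG-I, had 198 and 195 normalised counts after LPS, against 176 and 135 in controls (log2 fold change 0.35, edgeR adjusted p 0.535). Without 1 library its log2 fold change ran from 0.16 to 0.54. Trim30a, a mouse gene of the chromosome 7 Trim cluster, had 10.2 and 24.4 normalised counts after LPS, against 5.63 and 11.0 in controls, which overlapped (log2 fold change 0.95, SE 0.539, edgeR adjusted p 0.482). Its log2 fold change ran from 0.21 to 1.58 over the 4 fits that left out a library. Trim14 and Trim12a had log2 fold changes of 0.65 and 0.57 from under 17 normalised counts per library. The similar genes of the Trim cluster could share reads.

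Trim34a, singled out after its values were seen, had 5 and 6 raw counts after LPS and 0 in both controls. It was below the count filter and so not among the 113 tested genes, and edgeR called it higher in the fit with no filter on low counts. Its observed LPS level was 3.30-fold a floor of 3 counts over the control group. That ratio leaves out the counting error of the LPS counts, so it is not a firm minimum.

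Ubiquitin-specific proteases were tested in 30 of 56 cases and gave no call. No Usp gene passed in the edgeR test of all 4 libraries or in DESeq2. In that edgeR test 0 of the 30 had an unadjusted p below 0.05. Of all records tested, 5.53% were called and 15.4% had such an unadjusted p. Other edgeR fits did call some Usp genes. Usp36, a nucleolar deubiquitinase, had 138 and 150 normalised counts after LPS, against 129 and 92.0 in controls (log2 fold change 0.39, edgeR adjusted p 0.516), and was called higher after correction for GC content and length and without control replicate 1. Without control replicate 1, Usp34 and Usp9x were called lower, and without control replicate 2 Usp1, Usp15, Usp16, Usp31 and Usp34 were called higher and Usp10 and Usp28 lower, so Usp34 was called in opposite directions. Both fits take their spread from the LPS pair alone, and a larger share of all records was called in them too. The log2 fold changes of the 30 ran from -0.77 to 0.44 around a median of 0.03. Of the 30, 27 lay within 0.5 of 0, as did 5266 of the 6912 genes tested over the whole table. The groups overlapped in 22 of the 30, and in 3916 of the 6912 genes tested over the whole table. Usp1, which removes ubiquitin from DNA repair proteins, had 335 and 295 normalised counts after LPS, against 226 and 363 in controls (log2 fold change 0.08, edgeR adjusted p 0.943). Usp4, a close relative of Usp15, had 310 and 294 normalised counts after LPS, against 385 and 256 in controls (log2 fold change -0.08, edgeR adjusted p 0.947). In both genes the 2 controls enclosed the LPS values.

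Deubiquitinases reported to act on NF-kB or Toll-like receptor signalling were tested in 9 of 17 cases, with 5 log2 fold changes above 0 and 4 below and a median of 0.01. Usp7, known for its action on p53 and MDM2, had 313 and 304 normalised counts after LPS, against 252 and 314 in controls (log2 fold change 0.12, 95% interval -0.30 to 0.54, edgeR adjusted p 0.890). Usp15 had 216 and 314 normalised counts after LPS, against 163 and 323 in controls, so the replicates of each group differed more than the groups did. Its log2 fold change of 0.10 was 0.70 without control replicate 2 (edgeR adjusted p 0.00235) and -0.29 without control replicate 1. Usp10 gave the opposite pattern, with 99.8 and 89.0 normalised counts after LPS, against 149 and 75.1 in controls, and a log2 fold change of -0.21 that was -0.66 without control replicate 2 (edgeR adjusted p 0.0161) and 0.33 without control replicate 1. Usp31 had a log2 fold change of 0.19, which ran from -0.077 to 0.55 over the 4 fits that left out a library. Usp25, Usp38, Usp21 and Usp20 had log2 fold changes of 0.01, -0.02, 0.22 and -0.37 that did not pass.

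Of 8 Otud genes only Otud6b and Otud3 were tested. Otud6b had 142 and 180 normalised counts after LPS, against 115 and 150 in controls, which overlapped (log2 fold change 0.27, edgeR adjusted p 0.730). Otud3 had 43.5 and 38.1 normalised counts after LPS, against 57.7 and 41.4 in controls (log2 fold change -0.25, edgeR adjusted p 0.832). Otud1, an inducible deubiquitinase, had 6 and 11 raw counts after LPS, against 7 and 8 in controls, below the filter.

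**Figure D4:**
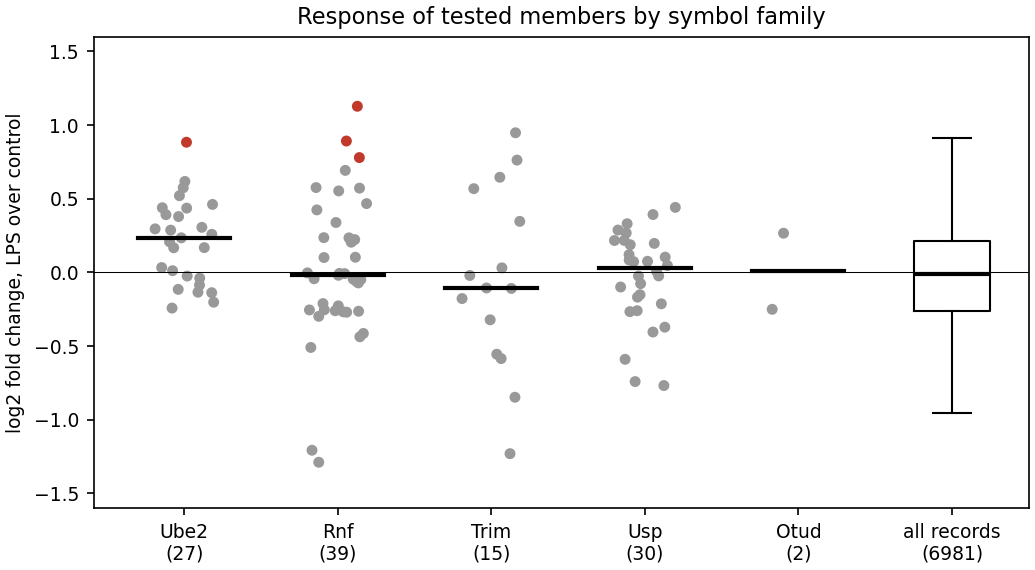
Log2 fold change of LPS over control for each tested gene by symbol family, with the number tested in brackets, family medians as black bars and the 4 genes past the threshold in red. The box shows the quartiles of all 6981 records, with whiskers to the last value within 1.5 times the interquartile range. The Ube2 median is 0.24, and those of the other families lie between -0.11 and 0.03.

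Differences between the replicates went with base composition, in these genes and over the whole table. Across the 113 genes the log2 ratio of control replicate 1 over control replicate 2 had a Spearman's rho of 0.581 with the GC content of the transcript, and that of LPS replicate 1 over LPS replicate 2 had a rho of 0.489. Over 6924 tested records the values were 0.662 for the control pair and 0.266 for the LPS pair. These points share their libraries, so the correlations are descriptions. The GC-poor Usp15 was low in control replicate 1 and the GC-rich Usp10 and Ube2v1 were high in it. The log2 fold change of LPS over control had a rho of -0.116 with GC content over the same genes. The part of this pattern in the single results was not tested beyond the fits with the trend removed.

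**Figure D5:**
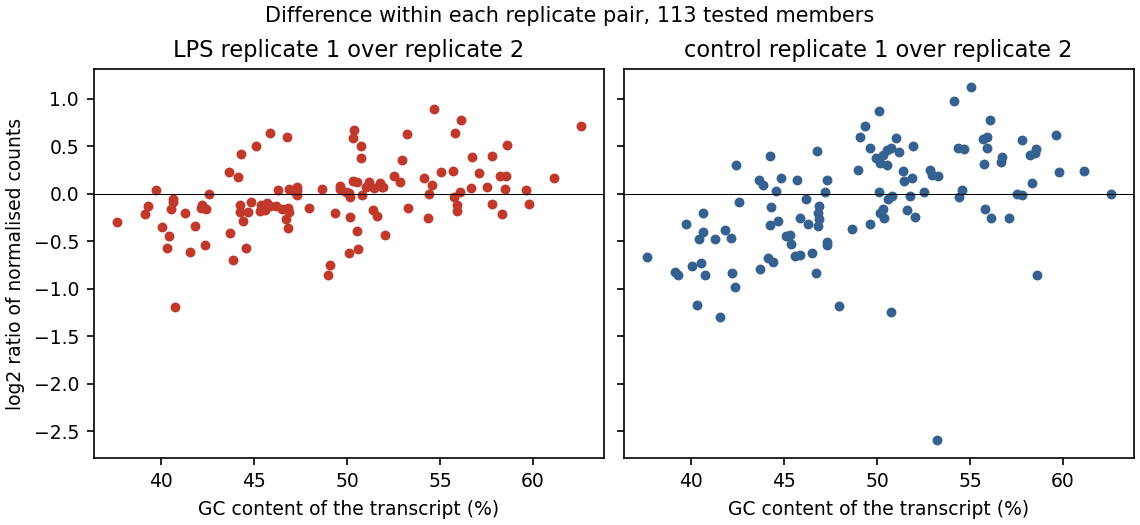
Log2 ratio of replicate 1 over replicate 2 (vertical axis) against GC content of the transcript in percent (horizontal axis) for 113 tested genes, for the LPS pair on the left and the control pair on the right. Both clouds slope upward, with a rho of 0.489 for the LPS pair and 0.581 for the control pair.

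Ubiquitin system genes outside these symbol families were counted on lists by role. Of 18 tested ligases of innate signalling, 4 rose and none fell, where 3.82% of all records were higher and 1.70% lower. The lists were chosen with earlier results of these data known, so these shares do not test for enrichment. Birc3, an inhibitor of apoptosis that ubiquitinates RIPK1, had 69.3 and 68.5 normalised counts after LPS, against 15.5 and 20.3 in controls (log2 fold change 1.91, edgeR adjusted p 0.00244). Peli1, a Pellino ligase of the IRAK pathway, had 273 and 301 normalised counts after LPS, against 68.9 and 111 in controls (log2 fold change 1.64, edgeR adjusted p 0.0017). Dtx3l, a partner of the ADP-ribosyltransferase PARP9, rose by 1.34 on the log2 scale (edgeR adjusted p 0.00665) and Neurl3, a RING ligase, by 1.18 (0.0337). Among 6 tested E1 enzymes, 3 genes of the linear ubiquitin complex and its deubiquitinase, and 14 other deubiquitinases none passed in the edgeR test of all 4 libraries, and of 7 tested genes of ubiquitin and its relatives only Isg15 rose. Tnfaip3, which encodes the NF-kB deubiquitinase A20, had 2 and 7 raw counts after LPS, against 0 and 0 in controls, and was below the filter.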

How the data were processed

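The authors deposited whole-number counts of reads for each RefSeq record. Its name calls the counts normalised, but column totals differ and every whole number up to at least 228 occurs in each column, so they were used as raw counts. Ribosomal RNA was removed and directional libraries were sequenced as paired ends, per the labels' protocols. Per the submitters' processing notes, HTSeq 0.6.1, TopHat2 2.0.10 and Trimmomatic 0.33 were among the tools, the build was mm10, and no tool's role is named. The counting settings and use of strand were not given in the sources used here.

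Of 32915 records, 32487 matched a symbol in RefSeq tables of GRCm38.p6. Transcript length and GC content came from GENCODE M21 transcripts linked to RefSeq records. Records passing edgeR's filterByExpr (minimum count 10) were scaled by TMM, and the quasi-likelihood test of edgeR 4.0.16 in R 4.3.3 compared the LPS with the control libraries. P-values were adjusted by Benjamini-Hochberg over all 6981 records tested, and 0.05 was the threshold. Normalised counts are counts scaled to the mean effective library size of 3108147. Standard errors are the log2 fold change over the root of F, and intervals are 95%. The libraries carry no molecular identifiers, so floors cover counting error only. Alternatives used DESeq2 1.42.0, limma 3.58.1, other scalings and filters, a trend on GC and length fitted with mgcv and left-out libraries.

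The genes, lists and tests were chosen with earlier results of these data known. Named genes are those past the threshold, the 2 most abundant of each family, tested genes of the signalling, interferon, lysine-63 and ubiquitin-like lists, and members with an unadjusted p below 0.05 and an absolute log2 fold change of at least 1. One gene that this rule names is not reported here. Other genes were named as examples of a group after their values were seen.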

Additional observations from a re-analysis of the deposited data

How the results depend on the processing

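Of the 253 genes, 140 were at 0 or below the filter, and 61 of these have 2 or more records. The 4 rises kept their direction in all 14 alternatives, but this is not independent support. The alternatives reuse the libraries in which these genes were picked. Both LPS values lay above both control values in each gene, so leaving out 1 library could hardly reverse the direction. Genes higher among the 113 numbered 1 by DESeq2, 2 under the stricter filter (a mean of 50 normalised counts or more) and 8 with the GC and length trend removed, and 0 to 17 over the fits without 1 library. Without a filter 178 of these genes were tested, and 1 was lower (Rnf227). Among the 113, genes lower numbered 2 with the replicate block (Rnf227 and Trim16, with adjusted p-values of 0.00966 and 0.0304). They numbered 1 with the GC and length trend removed and 0 to 9 without 1 library. The replicate block with the GC and length trend removed gave 11 higher and 4 lower. Over all records, higher calls numbered 164 with the stricter filter, 401 with the block, 429 with the trend removed, 566 with both and 178 to 752 without 1 library, against 267. Lower calls numbered 66 by DESeq2, 209 without a filter, 54 with the stricter filter, 288 with the block, 317 with the trend removed, 543 with both and 42 to 601 without 1 library, against 119. The numbers of the replicates are not stated to pair the samples, and the deviations of same-numbered libraries correlated at 0.242 across records. The median over the tested ubiquitin genes ran from -0.019 to 0.17 without 1 library, the highest without control replicate 2.

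Fold changes near 0 changed sign. Rnf31 was at 0.0034 by DESeq2 and 0.023 with block and trend. Trim27 was at 0.0017 by limma-voom, 0.011 without a filter, 0.058 with the trend removed and 0.051 with block and trend. Usp38 was at 0.0074 without a filter, Usp1 at -0.016 with the trend removed and -0.022 with block and trend, and Usp25 at -0.016 with the trend removed. Without 1 library the ranges were -0.58 to 0.028 for Rnf128, -0.16 to 0.076 for Rnf187, -0.36 to 0.59 for Rnf31, -0.61 to 0.011 for Trim28, -0.24 to 0.21 for Trim27, -0.61 to 0.52 for Ube2v1, -0.20 to 0.48 for Usp1, -0.35 to 0.24 for Usp4, -0.025 to 0.29 for Usp7, -0.66 to 0.33 for Usp10, -0.29 to 0.70 for Usp15, -0.20 to 0.34 for Usp25, -0.077 to 0.55 for Usp31 and -0.12 to 0.079 for Usp38. The cause was not tested.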
